A study of Mus musculus with 4 samples.

Results

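A set of 9 genes, grouped as oncofetal targets of the let-7 microRNAs, was followed in the chromatin of mouse lung tumours. They were Hmga1, Hmga2, Igf2bp1, Igf2bp2, Igf2bp3, Lin28a, Lin28b, Igf2 and Dlk1. Oncofetal means active in the embryo and mostly silent in adult tissue, which does not hold alike for every member. The 9 genes were chosen by name, and every open region that overlapped a gene or lay within 10 kb of it was taken. This gave 27 of the 61972 merged regions of the series, at 7 of the 9 genes, and 9 of 20665 autosomal protein-coding genes. The assay was ATAC-seq, which uses a transposase to tag accessible DNA, on lung tumours of 4 mice of strain C57B6J aged 55 weeks. Of these, 2 samples were KrasLA1/+, a female (replicate 1) and a male (replicate 2). The other 2 were KrasLA1/+;Dicer1S2D/+, again a female (replicate 1) and a male (replicate 2). Below, paired values of a genotype stand in the order replicate 1, replicate 2. All 4 mice therefore carried KrasLA1, a latent allele that becomes oncogenic by spontaneous recombination, and the controls were not free of it. Dicer1S2D, of which 1 copy was present, makes a form of Dicer1, the enzyme that cuts microRNAs from their precursors, which mimics its phosphorylated state. Replicate number and sex thus divide the samples in the same way. The sources used here do not say whether tumours were pooled within a sample. In whole tumour tissue, fewer cells of a type and less open chromatin per cell cannot be told apart.

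let-7 is a family of microRNAs that Dicer1 cuts from hairpin precursors. The seed of a microRNA, bases 2 to 8, pairs with target messages and lowers their stability and translation. LIN28A and LIN28B bind let-7 precursors and block their processing, so that each side of the circuit represses the other, and let-7 rises as tissues such as the lung mature. HMGA1 and HMGA2 bend AT-rich DNA, IGF2BP1 to IGF2BP3 bind messages and protect them, IGF2 is a fetal growth factor and DLK1 is a membrane protein of progenitor cells. Igf2 and Dlk1 are also imprinted and are expressed from the paternal chromosome. The mature sequences of 3 family members are shown with the seed in capitals (RefSeq, GRCm38.p6).
mmu-let-7a-5p: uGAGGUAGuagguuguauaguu
mmu-let-7g-5p: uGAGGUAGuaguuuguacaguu
mmu-miR-98-5p: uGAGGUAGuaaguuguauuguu
The 9 family names listed with a 5p arm had 9 different sequences and 1 seed. The data hold chromatin at the 9 genes and no microRNA or messenger RNA levels. Target sites for the seed in these genes were not examined.

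A peak is an interval that the authors called in 1 library, and it is either present or absent, with no height or read count. The sequencing depth is unknown. The 4 libraries held 34767 to 50282 peaks, with the most in KrasLA1;Dicer1S2D replicate 1 and the fewest in KrasLA1;Dicer1S2D replicate 2. Marker genes of several cell types were set beside the lung label. Of 9 lung epithelial markers 6 had an annotated start, among them Nkx2-1, Sftpb and Sftpa1. Of these 6, 5 had a peak there in all 4 libraries and Epcam in both replicates 1. Among all coding genes with an annotated start, 50.2% had such a peak in all 4 libraries. Of 3 myeloid markers, Cd68 had such a peak in all 4 libraries, Lyz2 in 3 and Ptprc in 1. The 2 lymphocyte, 2 endothelial, 3 fibroblast and smooth muscle and 3 embryonic stem cell markers with an annotated start had none in any library. Over whole loci, each library held 26 to 38 of the 43 regions of lung epithelial markers, 11 to 18 of 23 of myeloid, 1 to 3 of 4 of lymphocyte, 8 to 12 of 12 of endothelial, 5 to 8 of 13 of fibroblast and smooth muscle and 2 to 7 of 9 of embryonic stem cell markers. Of 25 marker genes with a region, 0 had a region open only in the 2 KrasLA1;Dicer1S2D tumours. A region open only in the 2 KrasLA1 tumours lay at 5 of them, the epithelial Nkx2-1 and Cdh1, the myeloid Spi1, the endothelial Tek and the smooth muscle Acta2, against 4.87% of all coding genes with a region. The part of these cell types in the results was not tested.

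No region at the 9 genes was present in the tumours of 1 genotype only and in both of them. Of the 27 regions, 0 were gained, meaning open in the 2 KrasLA1;Dicer1S2D tumours and in no KrasLA1 tumour, and 0 were lost, the reverse. Among all 60713 autosomal regions 0.596% were gained and 1.42% lost, so a count of 0 among 27 is close to the background. With 1 library left out, 5 regions counted as gained without KrasLA1;Dicer1S2D replicate 2, 2 as gained without KrasLA1 replicate 1 and 2 as lost without KrasLA1 replicate 2. They were called in KrasLA1;Dicer1S2D replicate 1 alone, in every library but KrasLA1 replicate 2, and in KrasLA1 replicate 1 alone. Of all autosomal regions, 11.8%, 1.76% and 5.79% had these patterns, in the same order. Of the 27, 11 regions (40.7%) were called in all 4 libraries, 2 in 3, 7 in 2 and 7 in 1 library. Among all autosomal regions 43.5% were called in all 4 libraries. KrasLA1;Dicer1S2D replicate 1 had the most, 25 of the 27, and KrasLA1;Dicer1S2D replicate 2 the fewest, 13. The KrasLA1 tumours lay between them with 18 and 15. Both extremes thus came from the same genotype, and they were also the libraries with the most and the fewest peaks in the genome. Regions called in all 4 libraries were 331 to 2143 bp wide with a median of 874 bp, and those called in 1 library 172 to 415 bp with a median of 299 bp. By position, 3 regions held the start of a member, 2 held the start of a neighbouring gene and 22 held no annotated start. Of these 22, 18 overlapped a member gene. Exons and introns were not annotated.

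**Figure D1:**
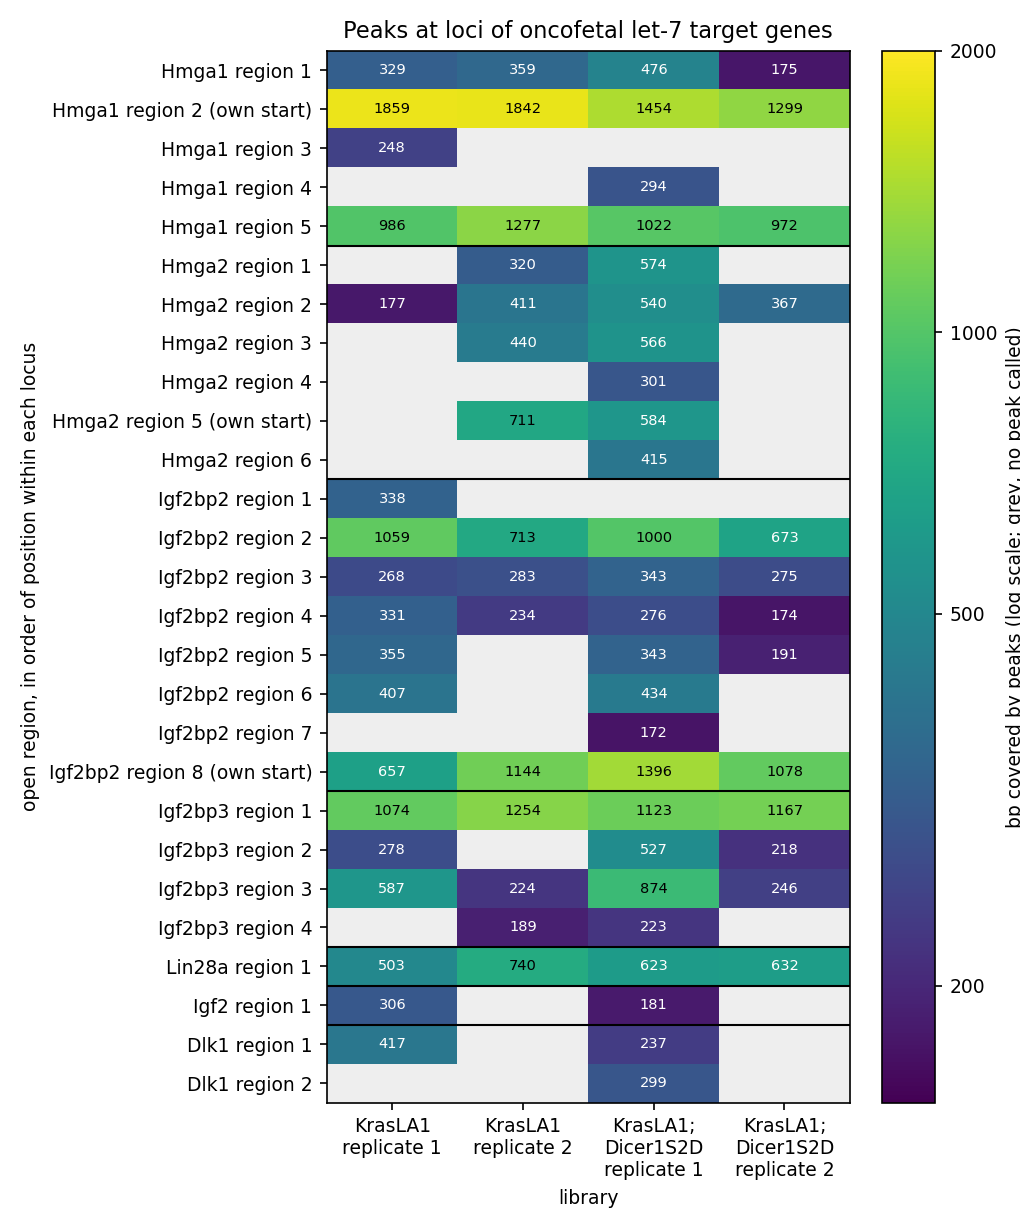
Base pairs covered by peaks in each of the 27 open regions (rows, by gene and in order of position on the chromosome) in the 4 libraries (columns), with grey where no peak was called and a log colour scale. The column of KrasLA1;Dicer1S2D replicate 1 is filled in 25 rows and that of KrasLA1;Dicer1S2D replicate 2 in 13, and no row is filled in the columns of 1 genotype only in both of its libraries.

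Hmga1 had the widest open promoter of the group, and it was open in every tumour. Hmga1 (gene ID 15361) lies on the + strand of chromosome 17 from 27556574 to 27563672. The region over its start (chr17:27555155-27557297) was 2143 bp wide. Peaks covered 1859 and 1842 bp of it in the KrasLA1 tumours, and 1454 and 1299 bp in the KrasLA1;Dicer1S2D tumours. The covered width was lower in both KrasLA1;Dicer1S2D libraries than in both KrasLA1 libraries, a log2 difference of -0.43 ± 0.11 (SE; limma unadjusted p = 0.0151, adjusted p = 0.9998 over 26402 regions). The median width of regions open in all tumours was 604 and 713 bp in the KrasLA1 libraries and 610 and 562 bp in the KrasLA1;Dicer1S2D libraries. With each library centred on this median, as in the test used for all regions, the Hmga1 difference was -0.26 ± 0.17 (SE; limma unadjusted p = 0.163, adjusted p = 0.999). In uncentred bp, the Hmga1 start region was the only 1 of the 11 member regions open in all libraries whose groups did not overlap. Of all 26402 such autosomal regions, 27.2% were lower and 3.66% higher in both KrasLA1;Dicer1S2D libraries in uncentred bp. The share among the members was below this background, which includes the difference in median width between libraries. With centring, groups also did not overlap at regions of Hmga2, Igf2bp2 and Igf2bp3, each higher in both KrasLA1;Dicer1S2D libraries. The share of all regions with centring was not counted. The KrasLA1 libraries held 1 peak each at the Hmga1 start, and the KrasLA1;Dicer1S2D libraries 2 each, parted by a gap of 393 bp in replicate 1 and 267 bp in replicate 2. The gaps shared 231 bp, from 453 to 223 bp upstream of the first annotated start. This pattern of 1 peak in each KrasLA1 and 2 or more in each KrasLA1;Dicer1S2D library was present at 152 of 26402 regions open in all libraries (0.576%), and the reverse at 6 (0.0227%). Among the 209 such regions at least as wide as that of Hmga1, the counts were 20 and 1. The split was singled out after its values were seen.

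The 250 bases upstream of the first Hmga1 start and of the start of Igf2bp2, the other member whose promoter was open in all tumours, are shown 5′ to 3′ on the strand of the gene. Capitals mark bases inside a peak of all 4 libraries. The Hmga1 window is chr17:27556324-27556573 on the + strand, the Igf2bp2 window chr16:22163300-22163549 on the - strand (RefSeq, GRCm38.p6).
Hmga1: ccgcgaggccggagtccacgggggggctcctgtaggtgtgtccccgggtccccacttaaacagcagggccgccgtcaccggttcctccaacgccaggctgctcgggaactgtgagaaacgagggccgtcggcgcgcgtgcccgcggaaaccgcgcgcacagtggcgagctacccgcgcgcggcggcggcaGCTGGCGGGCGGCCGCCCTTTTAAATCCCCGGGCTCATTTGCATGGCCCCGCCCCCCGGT
Igf2bp2: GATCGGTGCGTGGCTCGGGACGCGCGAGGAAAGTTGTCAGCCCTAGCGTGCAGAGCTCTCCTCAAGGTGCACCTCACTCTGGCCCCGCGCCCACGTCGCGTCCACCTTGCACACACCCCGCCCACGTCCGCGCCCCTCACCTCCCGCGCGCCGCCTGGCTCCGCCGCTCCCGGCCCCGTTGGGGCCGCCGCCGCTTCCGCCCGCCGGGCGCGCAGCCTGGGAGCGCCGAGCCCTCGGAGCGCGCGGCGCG
All 250 bases lay in the KrasLA1 peaks at Hmga1, 222 in the peaks of KrasLA1;Dicer1S2D replicate 2 and 60 in those of KrasLA1;Dicer1S2D replicate 1, so that the 60 bases next to the start were common to all. At Igf2bp2 all 250 bases lay in the peak of each library. Both windows are rich in CpG, with 34 and 40 CpG dinucleotides.

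Around the Hmga1 promoter, 2 further regions were open in all tumours and 2 in 1 tumour each. One lay 8772 bp upstream (chr17:27547298-27547802), with peaks of 329 and 359 bp in the KrasLA1 tumours and of 476 and 175 bp in the KrasLA1;Dicer1S2D tumours. The other, 1283 bp wide, lay 1186 bp beyond the end of the gene and held the start of AI413582, the neighbouring gene. A region of 248 bp just downstream of the start was called in KrasLA1 replicate 1 only, and 1 of 294 bp within the gene in KrasLA1;Dicer1S2D replicate 1 only. Hmga1b, a copy of Hmga1 on chromosome 11, is not a member. The sources used here do not say how reads that match both were placed.

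Hmga2 had the widest relative range of peak coverage among the members with a peak in all 4 tumours, and its start region was open in 1 tumour of each genotype. Hmga2 (gene ID 15364), an architectural chromatin protein that is a classic let-7 target and marks poorly differentiated tumours, lies on the - strand of chromosome 10 from 120361268 to 120476469. Its locus held 4 peaks in KrasLA1 replicate 2 and 6 in KrasLA1;Dicer1S2D replicate 1, against 1 each in KrasLA1 replicate 1 and KrasLA1;Dicer1S2D replicate 2. Peaks covered 1882 and 2980 bp in the first pair and 177 and 367 bp in the second. The high and the low tumour of each genotype lay far apart, and the ranges of the groups overlapped. The 2 high libraries also had the most peaks in the genome, 44654 and 50282. With only the 34767 widest peaks of each library, the locus held 0 and 4 peaks in the KrasLA1 tumours and 6 and 1 in the KrasLA1;Dicer1S2D tumours. The narrowest peaks kept were 240 and 317 bp wide in the KrasLA1 libraries and 294 and 171 bp in the KrasLA1;Dicer1S2D libraries. The 177 bp peak of KrasLA1 replicate 1 fell below the limit of its library. Read depth was not made equal in this way, and the part of peak number in the division was not tested.

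At the Hmga2 start the 2 tumours with a peak did not have the same peaks. In KrasLA1 replicate 2 a peak of 711 bp covered the start and reached 21 bp upstream and 689 bp into the gene. In KrasLA1;Dicer1S2D replicate 1 a peak of 584 bp ended 77 bp inside the gene, and a further peak of 415 bp began 274 bp upstream, so the start itself lay between peaks. KrasLA1 replicate 1 and KrasLA1;Dicer1S2D replicate 2 had no peak within 1 kb. Among 16457 coding genes with an annotated start, 0.620% had a peak within 1 kb of a start in just the same 2 libraries. The 250 bases upstream of the start (chr10:120476470-120476719, - strand) are shown with the 21 bases inside the peak of KrasLA1 replicate 2 in capitals, the only bases of the window in a peak of any library.
Hmga2: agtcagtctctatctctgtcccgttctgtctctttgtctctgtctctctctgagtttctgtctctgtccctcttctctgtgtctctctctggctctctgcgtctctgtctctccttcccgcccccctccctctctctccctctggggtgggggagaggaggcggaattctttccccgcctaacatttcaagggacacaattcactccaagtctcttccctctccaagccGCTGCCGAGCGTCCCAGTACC
The window holds 8 CpG dinucleotides.

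Within the 115202 bp of Hmga2, 1 region was open in all 4 tumours, 53933 bp downstream of the start (chr10:120421989-120422536). Its peaks were 177 and 411 bp wide in the KrasLA1 tumours and 540 and 367 bp in the KrasLA1;Dicer1S2D tumours (log2 difference 0.89 ± 0.42, SE, with widths centred on the library medians, and 0.72 without; limma adjusted p = 0.999 and 0.9998). The groups overlapped without centring. With centring they did not, and both KrasLA1;Dicer1S2D libraries were higher. The other 2 regions shared by KrasLA1 replicate 2 and KrasLA1;Dicer1S2D replicate 1 lay 47391 bp (chr10:120428513-120429078) and 98516 bp (chr10:120377380-120377953) downstream of the start. The second of these also overlapped the long noncoding RNA 1700006J14Rik. A region 15040 bp downstream was called in KrasLA1;Dicer1S2D replicate 1 only.

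**Figure D2:**
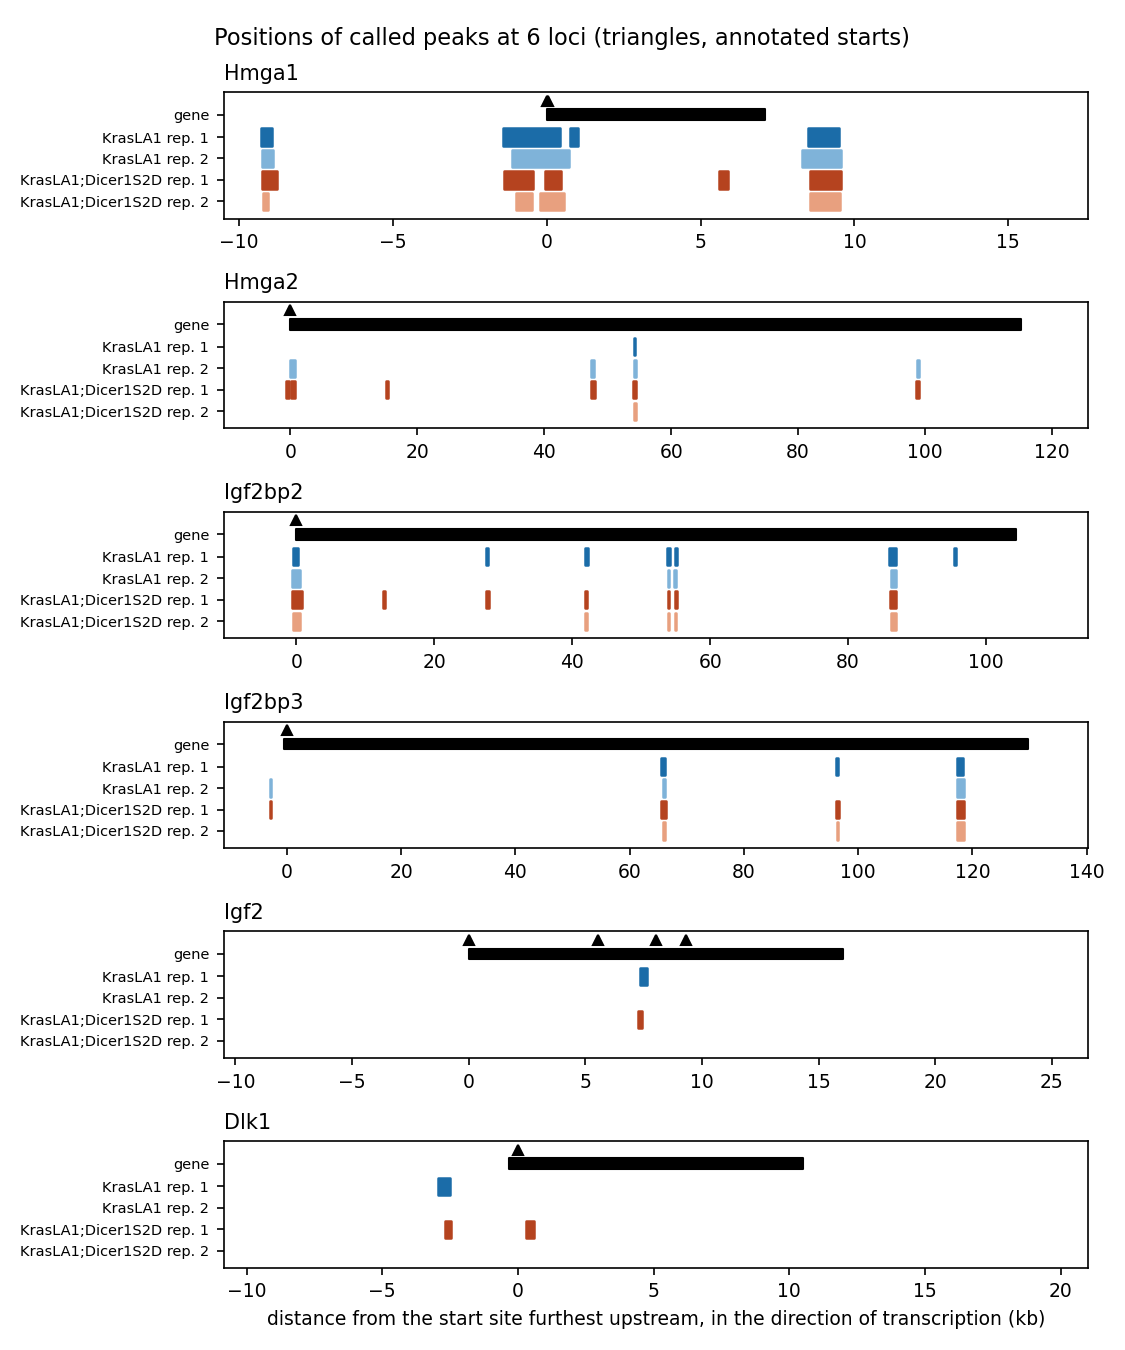
Called peaks (coloured bars, 1 row a library) by distance in kb from the start site furthest upstream, in the direction of transcription, at 6 loci. The gene is the black bar and triangles are annotated starts. At Hmga1 the promoter peak is single in the KrasLA1 rows and split in the KrasLA1;Dicer1S2D rows, and at Hmga2 the start has peaks in KrasLA1 replicate 2 and KrasLA1;Dicer1S2D replicate 1.

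The 3 Igf2bp genes, which code for closely related RNA-binding proteins, were open to very different degrees. Igf2bp2 (gene ID 319765, chromosome 16, 22059009 to 22163299, - strand), the member of the family that adult tissues keep expressing, was open in every tumour. Its promoter region (chr16:22162507-22163902) was covered over 0.657 and 1.14 kb in the KrasLA1 tumours and over 1.40 and 1.08 kb in the KrasLA1;Dicer1S2D tumours, so KrasLA1 replicate 1 stood below the other 3. As measured, the groups overlapped, and the log2 difference was 0.50 ± 0.31 (SE; limma unadjusted p = 0.176). With widths centred on the library medians the groups did not overlap, and both KrasLA1;Dicer1S2D libraries were higher. The centred difference was 0.67 ± 0.23 (SE; limma unadjusted p = 0.0256, adjusted p = 0.999). With centring the Igf2bp2 promoter was the only member region with an unadjusted p under 0.05, and without centring the Hmga1 promoter was. Of all regions open in every library, 0.633% met this level with a higher and 1.95% with a lower centred width, 167 and 514 regions, against 40 and 1125 without centring. Inside the gene, 3 regions were open in all tumours, 53778, 54827 and 85947 bp downstream of the start. The last of them (chr16:22076294-22077352) was the widest, with peaks of 1059 and 713 bp in KrasLA1 and 1000 and 673 bp in the KrasLA1;Dicer1S2D tumours, and replicate 1 was the wider in both genotypes. With equal numbers of the widest peaks, this region stayed in all libraries. The region at 54827 bp then had no peak in KrasLA1 replicate 2. That at 53778 bp had none in KrasLA1 replicate 2 and KrasLA1;Dicer1S2D replicate 1. A further 4 regions within the gene were called in 1 to 3 libraries, and 0 of them in KrasLA1 replicate 2. Of these, the region 41859 bp downstream of the start (chr16:22121069-22121440) was open in the other 3 tumours, with peaks of 355, 343 and 191 bp.

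Igf2bp3 had no promoter peak in any tumour, although regions inside the gene were open. Igf2bp3 (gene ID 140488), an oncofetal protein used as a tumour marker, lies on the - strand of chromosome 6 from 49085218 to 49215469. Its widest region (chr6:49096468-49097721) lay 117233 bp from the start, near the far end of the gene. Its peaks were 1074 and 1254 bp wide in KrasLA1 and 1123 and 1167 bp in the KrasLA1;Dicer1S2D tumours, so the 4 tumours were close to each other. This region and that 96092 bp downstream of the start also overlapped Malsu1, a neighbouring gene, and cannot be given to 1 of the 2 genes. The third open region within the gene (chr6:49148599-49149472) overlapped Igf2bp3 alone. Its peaks were 587 and 874 bp wide in the 2 replicates 1 (KrasLA1, then KrasLA1;Dicer1S2D) and 224 and 246 bp in the 2 replicates 2, so the tumours divided by replicate number, which is also sex, and not by genotype. Upstream, a region 2708 bp before the start was called in KrasLA1 replicate 2 (189 bp) and KrasLA1;Dicer1S2D replicate 1 (223 bp). The same libraries had peaks in the Hmga2 start region. Of all autosomal regions, 5.25% were called in just these 2 libraries. The 250 bases before the start (chr6:49214955-49215204, - strand) lay in no peak. They are shown because they hold 21 CpG dinucleotides, more than the median of 17 of promoters open in all libraries.
Igf2bp3: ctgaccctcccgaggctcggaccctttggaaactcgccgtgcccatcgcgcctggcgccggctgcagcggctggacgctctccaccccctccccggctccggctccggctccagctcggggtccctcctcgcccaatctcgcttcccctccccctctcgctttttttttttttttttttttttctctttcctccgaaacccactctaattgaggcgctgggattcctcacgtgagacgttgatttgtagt
Igf2bp1 (gene ID 140486, chromosome 11, 95957163 to 96005944), which codes for the member of the family most restricted to the embryo, had 0 regions within 10 kb in any library. The nearest regions were 14.8 kb and 87.0 kb away, and each was called in 2 libraries. Its start is not in the table of starts used here.

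Neither Lin28 gene, whose products are the inhibitors of let-7 processing, had an open region of its own. Lin28a (gene ID 83557, chromosome 4, 134003330 to 134019196, - strand) had 1 region within 10 kb, 2092 bp beyond its end (chr4:134000499-134001238). That region held the start of Dhdds, a housekeeping enzyme of dolichol synthesis, and was open in all tumours, with peaks of 503 and 740 bp in KrasLA1 and 623 and 632 bp in the KrasLA1;Dicer1S2D tumours. The groups overlapped. Lin28b (gene ID 380669, chromosome 10, 45376617 to 45486314, - strand) had 0 regions. The nearest lay 91.4 kb away at the start of Hace1 (1004 bp, all 4 libraries) and 146 kb away on the other side (165 bp, 1 library). Of 2054 autosomal coding genes as long as Lin28b or longer, 238 (11.6%) had no region within 10 kb, against 23.1% of all 20665 coding genes. An uncalled peak is not proof of closed chromatin, since the sources used here give neither the threshold nor the depth.

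The imprinted genes Igf2 and Dlk1 had small peaks in both replicates 1 and none in either replicate 2. Igf2 (gene ID 16002, chromosome 7, 142650768 to 142666816, - strand) had 1 region (chr7:142659190-142659557), 386 bp upstream of the third of its 4 annotated starts. Its peak was 306 bp wide in KrasLA1 replicate 1 and 181 bp in KrasLA1;Dicer1S2D replicate 1, and no peak was called in either replicate 2. Dlk1 (gene ID 13386, chromosome 12, 109452485 to 109463336, + strand) had a region 2454 bp upstream of its start (chr12:109449887-109450369). Its peak was 417 bp wide in KrasLA1 replicate 1 and 237 bp in KrasLA1;Dicer1S2D replicate 1. A second region, of 299 bp and 305 bp downstream of the start, was called in KrasLA1;Dicer1S2D replicate 1 only. These peaks were narrow, and with equal numbers of the widest peaks the Igf2 region and the upstream Dlk1 region were left in KrasLA1 replicate 1 only, and the second Dlk1 region in KrasLA1;Dicer1S2D replicate 1. Peaks in just the 2 replicates 1 were the most frequent pattern of regions called in 2 libraries, at 6.61% of all autosomal regions. Replicate number and sex cannot be told apart here.

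Peak coverage summed over the 9 loci did not differ between genotypes beyond the spread between tumours. In all, 18 and 15 peaks lay at the loci in the KrasLA1 tumours, against 26 and 14 in the KrasLA1;Dicer1S2D tumours. The means were 16.5 ± 2.12 and 20 ± 8.49 peaks (SD, n = 2 each). They differed by 3.5 peaks, with p = 1 in a two-sided exact permutation test. Peaks covered 10179 and 10141 bp in KrasLA1 and 14277 and 7467 bp in the KrasLA1;Dicer1S2D tumours. The means were 10160 ± 26.9 bp and 10872 ± 4815 bp (SD, n = 2 each), which differed by 712 bp (p = 1, same exact test). The smallest p that 2 against 2 libraries allow is 0.33. The KrasLA1 tumours were close to each other, and the KrasLA1;Dicer1S2D tumours lay on either side of them. The differences were -2.5 peaks and -2693 bp without KrasLA1;Dicer1S2D replicate 1. They were 9.5 peaks and 4117 bp when its replicate 2 was left out instead. Per Mb of all peaks of a library, the loci held 449 and 364 bp in KrasLA1 and 572 and 393 bp in the KrasLA1;Dicer1S2D tumours.

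**Figure D3:**
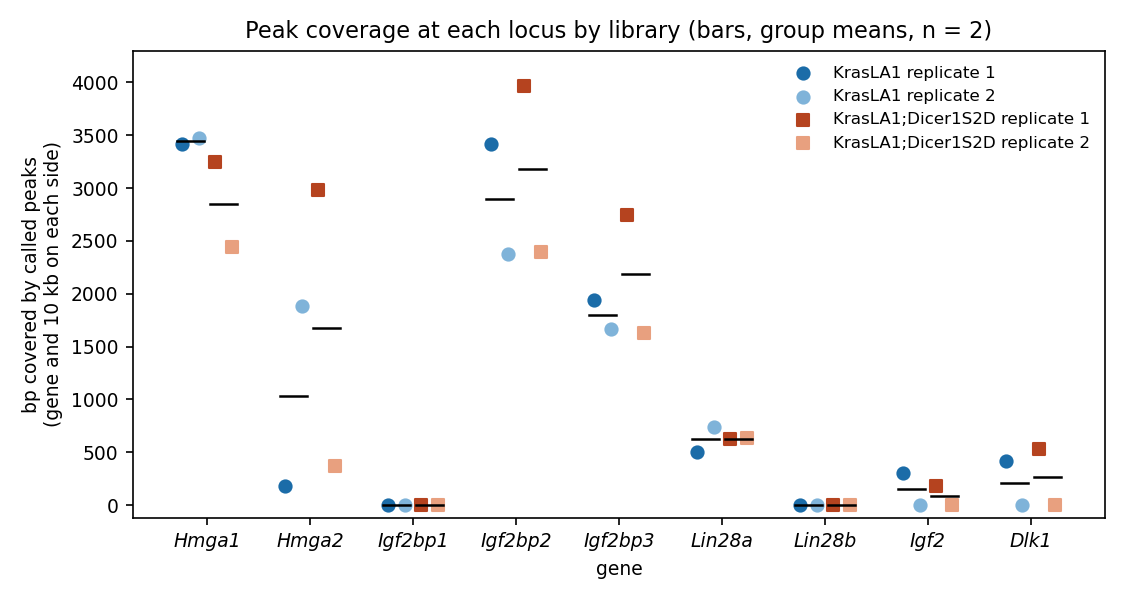
Base pairs covered by called peaks within each gene and 10 kb on each side (vertical axis), for the 9 genes (horizontal axis) in the 4 libraries, with a bar at the mean of each group (n = 2). At Hmga2 the libraries lie at 177, 1882, 2980 and 367 bp, and Igf2bp1 and Lin28b are at 0 in all libraries.

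Gene by gene, no member passed the test in a fit across all genes. Covered bp were scaled to the total of each library and compared on the log2(bp + 200) scale with limma over 15882 autosomal coding genes with a region. The call was an adjusted p under 0.05, which 0% of genes met in either direction, while 88 genes (0.554%) were higher and 180 (1.13%) lower at an unadjusted p under 0.05. Of the 7 members tested 0 had an adjusted or unadjusted p under 0.05, and the 2 without a region were not tested. The largest estimate was that of Hmga2, 0.76 ± 0.77 (SE; 95% interval -0.97 to 2.50, n = 2 against 2, limma adjusted p = 0.9999). It was 1.87 or 1.86 when the high KrasLA1 or the low KrasLA1;Dicer1S2D tumour was left out, and -0.35 or -0.34 when the low KrasLA1 or the high KrasLA1;Dicer1S2D tumour was. Over all 7 members and every alternative tried, the limma adjusted p ran from 0.964 to 1. Igf2bp3 followed with 0.40 (95% interval -0.18 to 0.99) and Igf2bp2 with 0.30 (-0.34 to 0.94). Hmga1 was at -0.08 (-0.57 to 0.42), or -0.27 without scaling to library totals, and Lin28a, whose only region is the Dhdds promoter, at 0.19 (-0.59 to 0.97). Igf2 and Dlk1, with 0 bp in both replicates 2, had the widest intervals, -2.11 to 1.62 and -1.80 to 1.96. The median over the 7 members was 0.19 and over all genes 0.02. In unscaled bp, Hmga1 was 3422 and 3478 bp in KrasLA1 and 3246 and 2446 bp in the KrasLA1;Dicer1S2D tumours, the only member with groups that did not overlap. Among all genes 27.7% were lower in this way and 1.98% higher, also in unscaled bp. Scaled to library totals, as in the fit, the groups overlapped at Hmga1. On that scale they did not overlap at Igf2bp3, which was higher in both KrasLA1;Dicer1S2D tumours. The share of all genes on that scale was not counted.

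**Figure D4:**
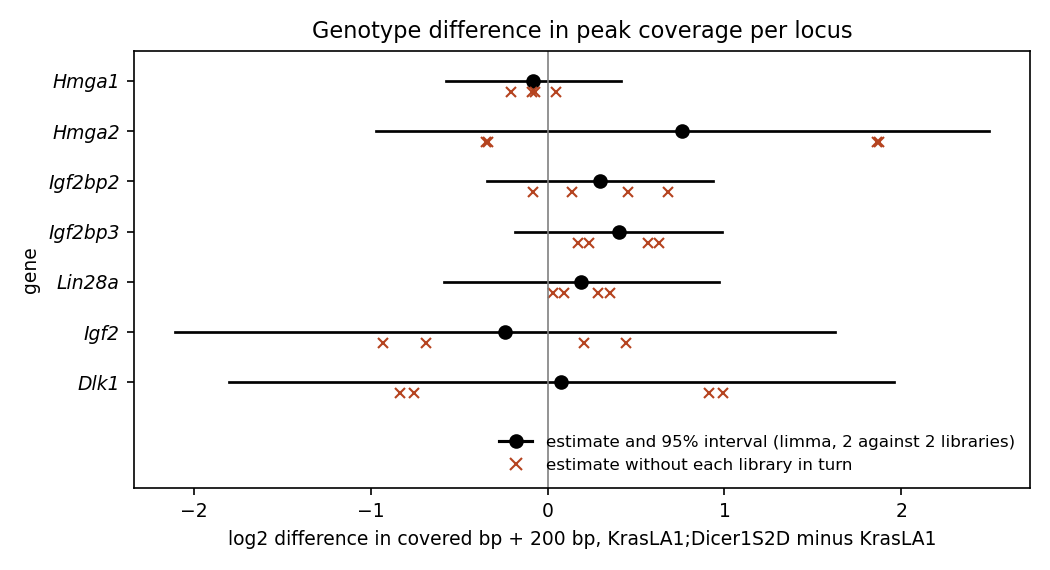
Estimated log2 difference in covered bp + 200 bp between KrasLA1;Dicer1S2D and KrasLA1 tumours (horizontal axis) for the 7 genes with a region, with 95% intervals from limma (black) and the estimates without each library in turn (crosses). Every interval spans 0, and the crosses of Hmga2 run from -0.35 to 1.87.

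Few of the oncofetal genes had an open promoter. A promoter peak was counted where a peak met the window from 250 bases before to 50 after an annotated start. Of the 8 members with an annotated start, 2 (Hmga1 and Igf2bp2) had one in all 4 libraries, Hmga2 in 1 and 5 in none. Among 16457 coding genes, 50.2% had a promoter peak in all 4 libraries and 42.4% in none, and few lay in between. Of 14 other let-7 targets with an annotated start, 13 had one in all 4 libraries, among them Mycn, Nras, Cdk6, Igf1r and Dicer1, and 1, Trim71, a stem cell RNA-binding protein, in none. The difference between the 2 lists was not tested. A promoter peak present in both libraries of 1 genotype and neither of the other was found at 0 members, and at 0.0729% (KrasLA1;Dicer1S2D) and 0.450% (KrasLA1) of coding genes. With any peak within 1 kb of a start counted, 2 members were open in all 4 libraries, Hmga2 and Igf2 in 2, Dlk1 in 1 and 3 in none.

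**Figure D5:**
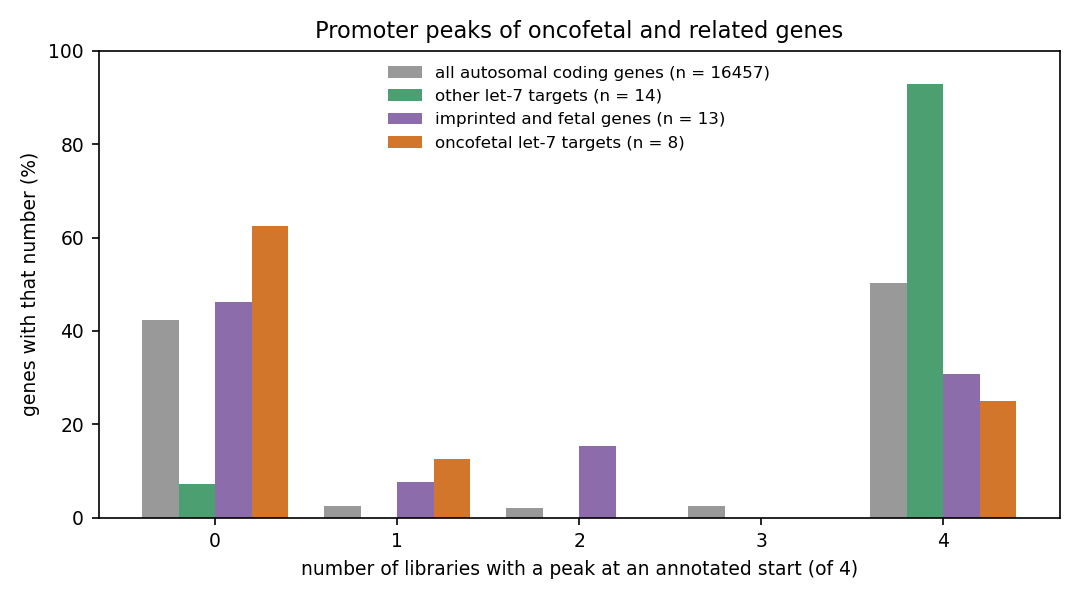
Share of genes (vertical axis, %) by the number of libraries with a peak at an annotated start (horizontal axis), for all autosomal coding genes and 3 lists. Of the 14 other let-7 targets 13 stand at 4 libraries, and of the 8 oncofetal genes with an annotated start 2 do.

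Sequence before the starts is given as a description. Over the 250 bases before 20085 coding starts, the median number of CpG dinucleotides was 17 where a promoter peak was called in all 4 libraries and 3 where it was called in none. The open Hmga1 (34 and 35 at its 2 starts) and Igf2bp2 (40) lay above the upper quartile of open promoters, which was 24. Of the members with no promoter peak, Lin28a had 7, Lin28b 6 and Dlk1 8, between these medians. The only annotated Lin28b start used here, at 45470201, lies inside the gene, whose upstream end is at 45486314. The Lin28b sequence counts therefore describe a site within the gene, and the sequence at its upstream end was not examined. Igf2bp3, with 21, and the third start of Igf2, with 22, had no promoter peak and more CpG than the median open promoter. Of all starts with at least 21, 79.0% had a peak in all 4 libraries and 13.4% in none. The GC box GGGCGG, searched on both strands with overlapping matches counted, was found at 43.4% of all starts, 3 times before the first start of Hmga1, 2 times before that of Igf2bp2 and 1 time before that of Hmga2, and 1 and 2 times before the third and the fourth start of Igf2. The E-box CACGTG, at 6.69% of all starts, was found 1 time each before Igf2bp3 and Lin28b, as was CCAAT (35.3% of all starts), which also stood before the fourth start of Igf2. The AP-1 element TGACTCA (4.09%) and TATAAA (11.7%) were found before no member. A match is a string of letters and not a bound site.

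Related genes of the let-7 and growth factor circuits showed little that followed the genotype. Of 23 other let-7 targets, all with a region, 1 had a gained and 2 a lost region. Among all coding genes with a region, 1.78% had a gained and 4.87% a lost region. The gained region lay at Cdc25a, a phosphatase that drives the cell cycle (241 bp, chr9:109894866-109895106, 971 bp outside the gene). The lost ones lay at E2f2, a transcription factor of the cell cycle (1178 bp, chr4:136171972-136173149), and Plagl2, a zinc finger factor (250 bp, chr2:153238507-153238756). Of 19 imprinted and fetal genes 16 had a region, and of 10 genes of the IGF axis 9 did, and none of these had a gained or lost one. In the limma fit 0 of 23, 0 of 13 and 0 of 9 tested genes of the 3 lists had an adjusted p under 0.05. At an unadjusted limma p under 0.05 there was 1 gene of these lists, Igf2r, the imprinted receptor that clears IGF2, which stands in both the imprinted and the IGF list (log2 difference 0.56, limma adjusted p = 0.9999). Unscaled, peaks covered 2135 and 3588 bp of Igf2r in the KrasLA1 tumours and 4661 and 2808 bp in the KrasLA1;Dicer1S2D tumours, so the groups overlapped. Scaled to library totals, as in the fit, they did not overlap, and both KrasLA1;Dicer1S2D tumours were higher. The median log2 differences of the lists were 0.03, 0.04 and 0.03, against 0.02 over all genes. The receptors Igf1r and Igf2r and the adaptors Irs1 and Irs2 had promoter peaks in all 4 tumours, while the ligand Igf1 and the binding proteins Igfbp2, Igfbp3 and Igfbp5 had none, and Igfbp4 had one in KrasLA1 replicate 1.

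Genes with coverage most like that of the members were named by the smallest sum, over the 4 libraries, of absolute differences in covered bp. For Hmga2 they were D930020B18Rik (391 and 2096 bp in KrasLA1, 2022 and 397 bp in the KrasLA1;Dicer1S2D tumours, a summed difference of 1416 bp) and Dscaml1 (1455 bp). For Hmga1 they were Ehmt1, a histone methyltransferase (235 bp), and Zc3h14 (294 bp). Those of Igf2bp2 were Umad1 (418 bp) and Kctd17 (790 bp), and those of Igf2bp3 were Slc35c1 (330 bp) and Ptprz1 (376 bp). Lin28a was followed by Olfr550 and Trim21 (104 bp each), Igf2 by Tmem179 (2 bp) and Adgrf4 (6 bp), and Dlk1 by Lrrn4 (20 bp) and Ttyh1 (32 bp).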

How the data were processed

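Peak positions were measured by ATAC-seq in 4 lung tumour samples, 2 per genotype, grouped by the labelled genotype. Per the submitters' processing notes, the authors used BWA 0.7.12, MACS3 3.0.0 and deepTools 3.5.1 with build mm10. Their roles and settings, the peak threshold, filters, any shift of reads and the read depth are not stated there. Per the file headers, the deposited table holds 5 interval tracks, 1 of merged regions and 1 of peaks for each library, with no counts or scores, and 0 tracks belonged to other samples. A company made and analysed the libraries, per the labels' protocols. Signal tracks were not used here.

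Peaks that overlapped by 1 bp or more were merged, and the 61972 results were identical to the authors' merged regions. Genes, starts and sequences came from RefSeq tables for GRCm38.p6, the assembly of mm10, and 8 of 9 members had an annotated start. Covered bp per gene (10 kb window, scaled to library totals, plus 200 bp) and log2 peak width per region open in all libraries, centred on the median of each library, were compared with limma 3.58.1 in R 4.3.3 (trend, Benjamini-Hochberg). Sums were compared with exact permutation tests. Background counts used the 19 autosomes. Python 3.11.15, numpy 2.4.6 and matplotlib 3.10.9 were used, and the steps were tested on simulated data. The p-values measure the spread between these samples, which come from separate mice. The members and lists were chosen with earlier results of these data known. Related genes were named where they had a gained or lost region, at most 6 per list and direction, and the 2 genes most like each member with a peak were named; the promoter states of other listed genes were singled out after their values were seen. Alternatives covered the window (0, 2 and 50 kb), a minimum width of 200 bp, only the widest 75%, the same number per library, merging (50% of the narrower peak, or a gap of 500 bp), the constant added (50 or 1000 bp), scaling, centring, filtering, replicate number as a block and leaving out each sample. Counting promoter peaks within 1 kb of a start or with equal numbers of peaks was added after seeing the data.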

Additional observations from a re-analysis of the deposited data

Results flagged for a closer look

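In both sexes 1 tumour of each genotype was available. In unscaled values, the genotype difference ran in opposite directions in the 2 sexes for the sums over the 9 loci and for 3 genes. Sex and replicate number are the same division here, each difference is 1 library minus 1 library, and the contrast between the sexes was not tested. How many of all coding genes had differences in opposite directions was not counted. Over all 9 loci, the KrasLA1;Dicer1S2D tumour had 8 peaks and 4098 bp more than the KrasLA1 tumour in females, and the differences in males were -1 peak and -2674 bp. Per Mb of all peaks of a library, the KrasLA1;Dicer1S2D tumour held more in both sexes. It held 572 bp against 449 bp in females and 393 bp against 364 bp in males. At Hmga2 the female difference was 5 peaks and 2803 bp, and the male difference -3 peaks and -1515 bp. At Igf2bp3 the differences in covered bp were 808 bp in females and -36 bp in males, and at Lin28a, whose region is the Dhdds promoter, 120 bp and -108 bp. The female KrasLA1;Dicer1S2D library had the most peaks in the genome (50282) and the male one the fewest (34767); the part of peak number in these differences was not tested.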

How the results depend on the processing

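The counts of 0 gained and 0 lost regions at the 9 loci were the same with the gene body only, windows of 2 and 50 kb, a minimum width, the widest 75% of peaks, equal numbers of peaks and both other ways of merging. With 3 libraries, where 1 genotype rests on a single one, there were 0 to 5 gained and 0 to 2 lost regions. These were 5 gained without KrasLA1;Dicer1S2D replicate 2, 2 gained without KrasLA1 replicate 1 and 2 lost without KrasLA1 replicate 2. Of all autosomal regions, 11.8% were called in KrasLA1;Dicer1S2D replicate 1 alone, 1.76% in every library but KrasLA1 replicate 2 and 5.79% in KrasLA1 replicate 1 alone. The genotype difference over the 9 loci was positive under every window and peak filter, and ran from -2.5 to 9.5 peaks and from -2693 to 4117 bp with 1 library left out, negative only without KrasLA1;Dicer1S2D replicate 1. Counting peaks within 1 kb of a start, 5 members in place of 3 had a promoter peak in at least 1 library. Same-numbered samples deviated together with a correlation of 0.181 over genes and 0.120 over region widths, which with 2 pairs does not show a pairing beyond the shared number and sex. With a replicate block 6 genes were called higher and 9 lower in place of 0, none of them a member (Hmga2, limma adjusted p = 0.9999, unadjusted p = 0.0405), and no region width was called. With 1 library left out, where the lone library is assumed to vary like the others, 0 genes were called, and region widths gave 0 to 1 higher and 0 to 37 lower calls: 6 lower without KrasLA1;Dicer1S2D replicate 1, and 1 higher and 37 lower without KrasLA1;Dicer1S2D replicate 2. The log2 difference per gene changed sign with single libraries left out for Hmga1 (-0.21 to 0.049), Hmga2 (-0.35 to 1.87), Igf2bp2 (-0.084 to 0.68), Igf2 (-0.93 to 0.45) and Dlk1 (-0.83 to 0.99), and kept it for Igf2bp3 and Lin28a. The values that reversed were 0.049 (Hmga1), -0.35 (Hmga2) and 0.45 (Igf2) without KrasLA1 replicate 1, -0.084 (Igf2bp2) and -0.75 (Dlk1) without KrasLA1 replicate 2, -0.34 (Hmga2) and -0.83 (Dlk1) without KrasLA1;Dicer1S2D replicate 1, and 0.21 (Igf2) without KrasLA1;Dicer1S2D replicate 2. The cause was not tested. Without scaling to library totals the median log2 difference of all genes moved from 0.02 to -0.15, and the counts at an unadjusted p under 0.05 from 88 higher and 180 lower to 21 and 466. Without centring, no region width was called, and the median log2 difference of widths moved from 0.04 to -0.12. The unknown read depth limits what an absent peak means.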

Other observations

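The 2 imprinted domains that hold Dlk1 and Igf2 had more open regions in both replicates 1 than in both replicates 2. This was noticed in the data, and the domains were drawn afterwards. From 10 kb before Dlk1 to 10 kb beyond Meg3, the maternally expressed noncoding RNA of the same domain (chr12:109442485-109581729), 9 regions were called. KrasLA1 replicate 1 and KrasLA1;Dicer1S2D replicate 1 held 7 each, and both replicates 2 held 2 each. The 2 regions open in all 4 tumours were 783 bp (chr12:109494897-109495679) and 1363 bp wide (chr12:109531200-109532562), and the second lay 8434 bp from Meg3. A region of 269 bp overlapping Meg3 was called in both replicates 1 only. From 10 kb before H19, the noncoding partner of Igf2, to 10 kb beyond Igf2 (chr7:142565530-142676816) 3 regions were called. Both replicates 1 held all 3 and both replicates 2 held 1, a region of 536 bp lying 2124 bp from H19 (chr7:142580270-142580805). Over the whole genome 6.61% of autosomal regions were called in just the 2 replicates 1. With equal numbers of the widest peaks, the Igf2 region and the region upstream of Dlk1 were left in KrasLA1 replicate 1 only. Replicate number is also sex, and these were 1 female and 1 male tumour per genotype.

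Another 2 imprinted genes had peaks in KrasLA1 replicate 2 alone. Peg3, a zinc finger factor, had 3 peaks over 764 bp there and Mest, a hydrolase-like protein of the embryo, 1 peak over 202 bp, and both had 0 in the other 3 tumours. Of all autosomal regions, 8.91% were called in KrasLA1 replicate 2 alone. Promoter peaks of Gatm, an enzyme of creatine synthesis, and of Meg3 were called in both replicates 1 only. Of the imprinted and fetal list, Dcn, Ndn and Sox11 had 0 regions in any tumour.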
